A study of Homo sapiens with 22 samples.

Results

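The FMN1, BACE2 and SERPINA1 loci are stretches of the genome of K562, a human leukemia cell line, at which H3K27ac or Jun signal went from near 0 counts to high counts during 72 h with PMA. Each locus was taken as the RefSeq span of its gene on GRCh38 with 50000 bp on either side, and its members were all regions of the 4 deposited region tables that overlapped this window. There were 230 member regions out of 409446, with 114 at FMN1, 94 at BACE2 and 22 at SERPINA1. By antibody, 60 were H3K27ac regions, 92 Jun regions, 36 CTCF regions and 42 Rad21 regions, and 164 of the 230 overlapped the span of FMN1, BACE2 or SERPINA1 itself. The loci were chosen by the rise of H3K27ac and Jun counts at 72 h against 0 h, so H3K27ac and Jun values of the member regions are a description: their calls in the fit over each whole table are counted, at all times, but support nothing. CTCF and Rad21 were not used in the choice, and their tests are reported. A CTCF or Rad21 region with few counts before 72 h could enter the tests only through its 72 h libraries. The call of such a region at 72 h is no support for a rise.

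The cells were K562 of wild-type genotype, given 25 nM of PMA, a phorbol ester that activates protein kinase C and pushes these cells toward megakaryocytic traits, and taken at 0, 6 or 72 h. Crosslinked cells were profiled by CUT&RUN (CNR in the titles, which do not spell it out), where a nuclease brought in by an antibody releases DNA beside a bound protein or histone mark. Antibodies against H3K27ac, Jun and CTCF were used at 0, 6 and 72 h and one against Rad21 at 0 and 72 h, with 2 libraries per antibody and time and 22 libraries in all. Nothing in the labels says that the 2 libraries of a group came from separate cultures, so the tests measure the spread between these libraries only, and all results come from 1 cell line. Since these are bulk libraries, more cells carrying a mark and more of the mark in each cell cannot be told apart.

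H3K27ac marks active promoters and enhancers, Jun is a partner in many AP-1 dimers, transcription factors induced by phorbol esters, CTCF is a sequence-specific insulator protein and Rad21 is a subunit of the cohesin ring that extrudes chromatin loops and is often halted at CTCF sites. FMN1 encodes formin 1, which nucleates unbranched actin filaments, BACE2 encodes a transmembrane aspartyl protease that cleaves the amyloid precursor protein and other substrates, and SERPINA1 encodes alpha-1 antitrypsin, the main plasma inhibitor of neutrophil elastase. SERPINA1 is used mainly by hepatocytes and also by monocytes and macrophages, from different start sites.

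The FMN1 span was chr15:32765544-33194714, the BACE2 span chr21:41168160-41282530 and the SERPINA1 span chr14:94376747-94390635. The FMN1 window also held GREM1, an antagonist of bone morphogenetic proteins, its antisense RNA GREM1-AS1 and the pseudogene TMCO5B. The BACE2 window held the non-coding RNAs LINC00323 and PLAC4, the microRNA gene MIR3197 and FAM3B, a secreted cytokine-like protein, and the SERPINA1 window held its pseudogene neighbour SERPINA2. A region lying over one of these is named with it below, since a signal there cannot be assigned to 1 gene by position. Just inside the lower edge of the FMN1 window lay an H3K27ac region with 2 counts at 0 h and 38 at 72 h, summed over both libraries, and just outside it, 58.5 kb from the span, one with 19 and 3446.

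RefSeq gives transcription start windows for FMN1 and SERPINA1, both on the minus strand of GRCh38.p14, and regions of the tables overlapped 1 of the 2 start windows of each gene. The bases upstream of those starts are shown because a Jun and an H3K27ac region that gained signal overlap them, in part for FMN1 (103 of 250 bases). Positions are counted from the first transcribed base, so that the base before it is -1, and capitals mark bases that lay inside both a Jun and an H3K27ac region. The FMN1 sequence runs over all 250 bases before the start (chr15:33194715-33194964) and the SERPINA1 sequence over positions -250 to -98 (chr14:94388700-94388852), every base of which lay in both regions.
FMN1 start 1: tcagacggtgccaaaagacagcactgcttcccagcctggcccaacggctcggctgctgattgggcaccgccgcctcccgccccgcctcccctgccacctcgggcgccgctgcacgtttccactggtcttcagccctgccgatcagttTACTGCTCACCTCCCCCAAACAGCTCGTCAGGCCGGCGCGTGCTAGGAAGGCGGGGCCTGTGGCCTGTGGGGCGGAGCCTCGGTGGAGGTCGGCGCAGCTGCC
SERPINA1 start 2: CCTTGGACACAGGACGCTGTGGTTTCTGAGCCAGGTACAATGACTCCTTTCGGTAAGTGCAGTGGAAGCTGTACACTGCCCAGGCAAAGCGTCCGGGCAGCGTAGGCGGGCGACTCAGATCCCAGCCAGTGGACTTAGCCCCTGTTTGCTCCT

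The FMN1 sequence had 69.6% G or C and 21 CpG pairs over its 250 bases, and the 250 bases before the SERPINA1 start had 58.0% and 11. The AP-1 motif TGANTCA, searched on both strands, was not present in the 300 base windows of these starts or of the other start of either gene, against 7.71% of 35116 RefSeq start windows that held it. The erythroid GATA motif AGATAAG was likewise not present in the 4 windows, and 2.68% of all windows held it. The short CTCF core AGGNGGC, held by 35.9% of all windows, had 2 matches in the FMN1 window, over which no CTCF region lay. These matches describe letters only.

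Total counts in regions were 12634261 to 27266241 per library for H3K27ac, 4766421 to 18883962 for Jun, 2553677 to 6068421 for CTCF and 4398797 to 7285286 for Rad21. The share of counts on the mitochondrial chromosome was 18.1% to 27.7% in the Jun libraries of 0 and 6 h and 8.58% to 9.07% in those of 72 h, and its part in the Jun results was not tested. In CTCF it was 17.8% to 30.5% before 72 h and 9.55% to 9.63% at 72 h, and in Rad21 24.8% to 34.1% throughout. Of 8 K562 and erythroid markers 7 had an H3K27ac region, with means of 42.5 to 214 CPM (counts scaled to library totals with TMM factors) at 0 h. Of these 7, 5 were called lower at 72 h and none higher, among them KLF1, an erythroid transcription factor, at 68.8 ± 0.16 CPM (SD, n = 2) at 0 h and 2.18 ± 0.369 CPM at 72 h. Of 4 lymphocyte markers 2 were called higher and 2 lower. Of the megakaryocyte markers reported here, ITGB3 and GP1BA were called higher, with log2 fold changes of 0.97 and 1.47, and ITGA2B and GP9 lower, with -0.59 and -0.57. These marker counts stand beside 43.4% of all H3K27ac regions called higher and 38.1% called lower at 72 h.

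At all 3 loci H3K27ac was close to 0 before PMA and high at 72 h, and it differed in how much of the signal was there at 6 h. Summed over the 25 FMN1 regions (16867 bp), the libraries held 4.77 and 3.90 CPM at 0 h, 39.0 and 30.8 CPM at 6 h, then 269 and 291 CPM at 72 h. Over the 29 BACE2 regions (17195 bp) the sums were 3.41 and 3.16 CPM, then 11.4 and 8.47 CPM, then 292 and 347 CPM. The 6 SERPINA1 regions (3401 bp) summed to 0.227 and 0.211 CPM, then 2.94 and 1.92 CPM, then 16.1 and 18.3 CPM. The libraries of the 3 times did not overlap at any locus. At 6 h the mean sum was 12.5% of its 72 h level at FMN1 and 14.1% at SERPINA1 but 3.12% at BACE2, while at 0 h it was 1.55%, 1.27% and 1.03%.

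**Figure D1:**
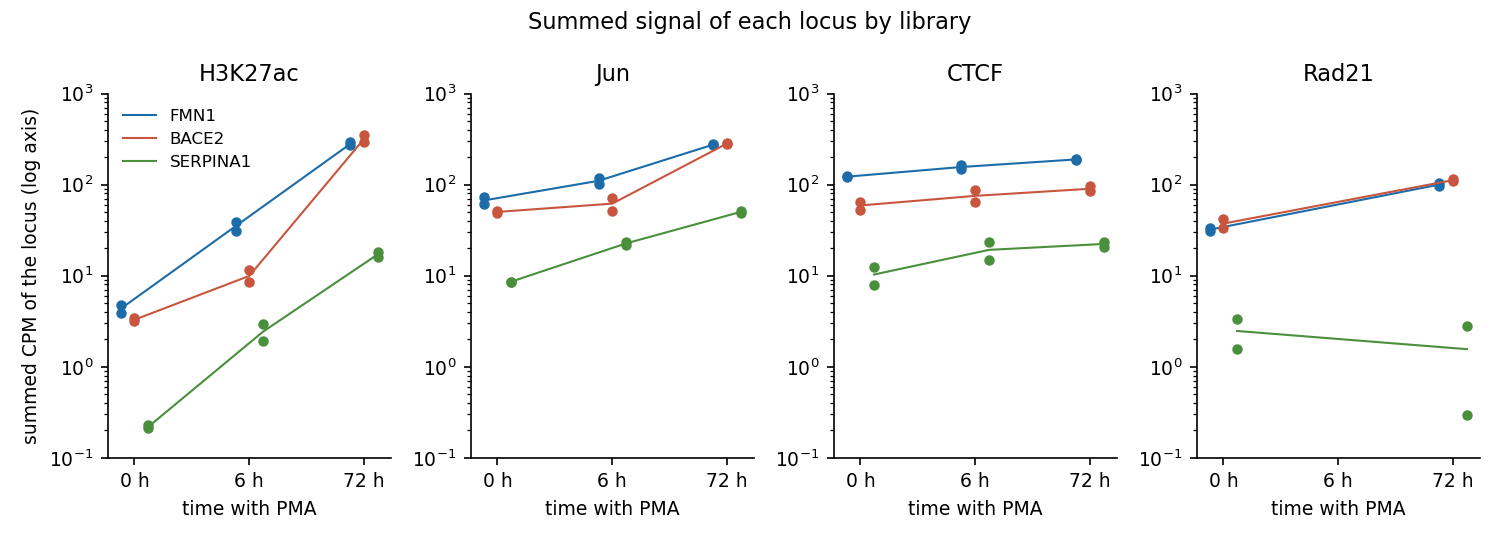
Summed CPM (log axis) of all regions of the FMN1, BACE2 and SERPINA1 loci in each table against time with PMA; each point is 1 library and lines join the means of 2 libraries. H3K27ac of the BACE2 locus is 11.4 and 8.47 CPM at 6 h and reaches 292 and 347 CPM at 72 h.

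All 60 H3K27ac regions passed the low count filter and all 60 were called higher at 72 h than at 0 h in the edgeR fit, against 43.4% of all H3K27ac regions tested that were called higher and 38.1% called lower. This contrast chose the loci, through low counts at 0 h and high counts at 72 h, so nothing is read from that count or from those of the other H3K27ac contrasts below. The median log2 fold change was 5.65 at FMN1, 6.63 at BACE2 and 6.26 at SERPINA1, beside 0.185 over all 94865 regions tested. With the regions at 0 counts in both 0 h libraries set to their lower bound, the medians were 5.18, 5.95 and 4.71. At 6 h against 0 h, 17 of 25 FMN1 regions, 9 of 29 BACE2 regions and 4 of 6 SERPINA1 regions were called higher, none lower, where 32.3% of all regions were called higher and 26.3% lower. With only the 0 and 6 h libraries fitted, 16 regions were called in place of 30, and 84680 regions of the table in place of 94865 passed the filter. From 6 to 72 h 21, 29 and 5 regions were called higher, beside 33.1% of all regions. Of the 60 regions 11 had 0 counts in both 0 h libraries and 47 had at most 5 counts there in sum, as the choice of loci with near 0 counts entails.

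The strongest part of the FMN1 locus lay close to the 3′ end of the gene span. Region 8 of the locus (regions are numbered along the chromosome within each table), at chr15:32773669-32775112, had 0 and 0 counts at 0 h, 49 and 29 at 6 h, then 1207 and 1367 at 72 h. Its 72 h level was 46.7 ± 4.31 CPM (SD, n = 2), at least 285-fold higher than at 0 h with a floor of 3 counts per library in place of the 0 counts. Region 9 beside it (chr15:32775383-32777295) had 8 and 4 counts, then 60 and 68, then 1763 and 1954, or 0.333 ± 0.172 CPM, 3.77 ± 0.602 CPM and 67.5 ± 5.20 CPM. Both held a minor part of their final signal at 6 h, and region 9 had a log2 fold change against 0 h of 3.48 (SE 0.34) at 6 h, then of 7.66 (SE 0.22) at 72 h. Region 13 (chr15:32833505-32834618) had 0 and 8 counts at 0 h, then 627 and 732 at 72 h.

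A second group of FMN1 regions was near its 72 h level already at 6 h. Region 19 (chr15:32869863-32870265) had 2 and 3 counts at 0 h, 43 and 78 at 6 h, then 133 and 109 at 72 h. Region 21 (chr15:32877494-32877794) had 0 and 2, then 30 and 32, then 63 and 37 counts. These and regions 20 and 22 were the 4 FMN1 regions not called between 6 and 72 h, and they were picked out after their values were seen. The region over the annotated FMN1 start, region 25 (chr15:33194504-33195594, also over the non-coding gene LOC105370759), did not follow them. It had 8 and 18 counts at 0 h, 16 and 18 at 6 h, then 152 and 164 at 72 h, so that its 0 and 6 h levels were 0.701 ± 0.349 CPM and 1.00 ± 0.165 CPM and its 72 h level 5.74 ± 0.333 CPM (SD, n = 2). Its log2 fold change of 3.01 (SE 0.33) at 72 h was the lowest of the 25 regions.

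The BACE2 regions lay all along the gene span and rose late. Region 24 (chr21:41254194-41255549) had 0 and 0 counts at 0 h, 4 and 14 at 6 h, then 1042 and 1201 at 72 h, a level of 40.7 ± 4.26 CPM that was at least 248-fold higher than the 3 count floor at 0 h. Region 4, near the lower end of the span (chr21:41170346-41171856), had 1 and 2 counts, then 17 and 19, then 683 and 730. The ratio of its 72 h to its 0 h counts was 313, with an exact 95% counting interval of 107 to 1520. Region 13 (chr21:41217039-41218731) had the most signal before PMA, 14 and 13 counts, and held 25 and 28 at 6 h, then 891 and 1004 at 72 h. Each of the 29 regions was called higher between 6 and 72 h, with log2 fold changes of 2.62 or more. Region 29 (chr21:41325435-41326280), with 0 and 0 counts at 0 h, then 65 and 125 at 72 h, lay over FAM3B and not over BACE2.

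SERPINA1 had few regions and low counts. The strongest, region 2 (chr14:94373820-94375355), lay 3′ of the gene, outside its span, and had 2 and 2 counts at 0 h, 20 and 21 at 6 h, then 229 and 294 at 72 h, or 0.109 ± 0.00579 CPM, 1.22 ± 0.259 CPM and 9.50 ± 1.71 CPM. Region 1 next to it (chr14:94373392-94373797) had 0 and 0, 10 and 1, and 63 and 43 counts, at least 11.7-fold higher at 72 h than the floor at 0 h. Region 3 (chr14:94388700-94388993), over the start shown above, had 0 and 1, 6 and 10, and 27 and 30 counts. Its counts at 72 h were 37.9 times those at 0 h, with an interval of 6.53 to 1520, and it was the one SERPINA1 region not called between 6 and 72 h. None of the 6 regions overlapped the start window at the 5′ end of the gene span. Of 5 hepatocyte markers, ALB and TTR among them, none had an H3K27ac region. Of 4 monocyte and macrophage markers 2, CSF1R and MARCO, were called higher at 72 h, with CSF1R, the receptor for macrophage colony-stimulating factor, at 0.989 ± 0.207 CPM at 0 h and 70.5 ± 2.64 CPM at 72 h, while LYZ fell from 41.0 ± 1.24 CPM to 13.9 ± 1.83 CPM and CD14 had no region. The part of a change of cell state in the SERPINA1 values was not tested.

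**Figure D2:**
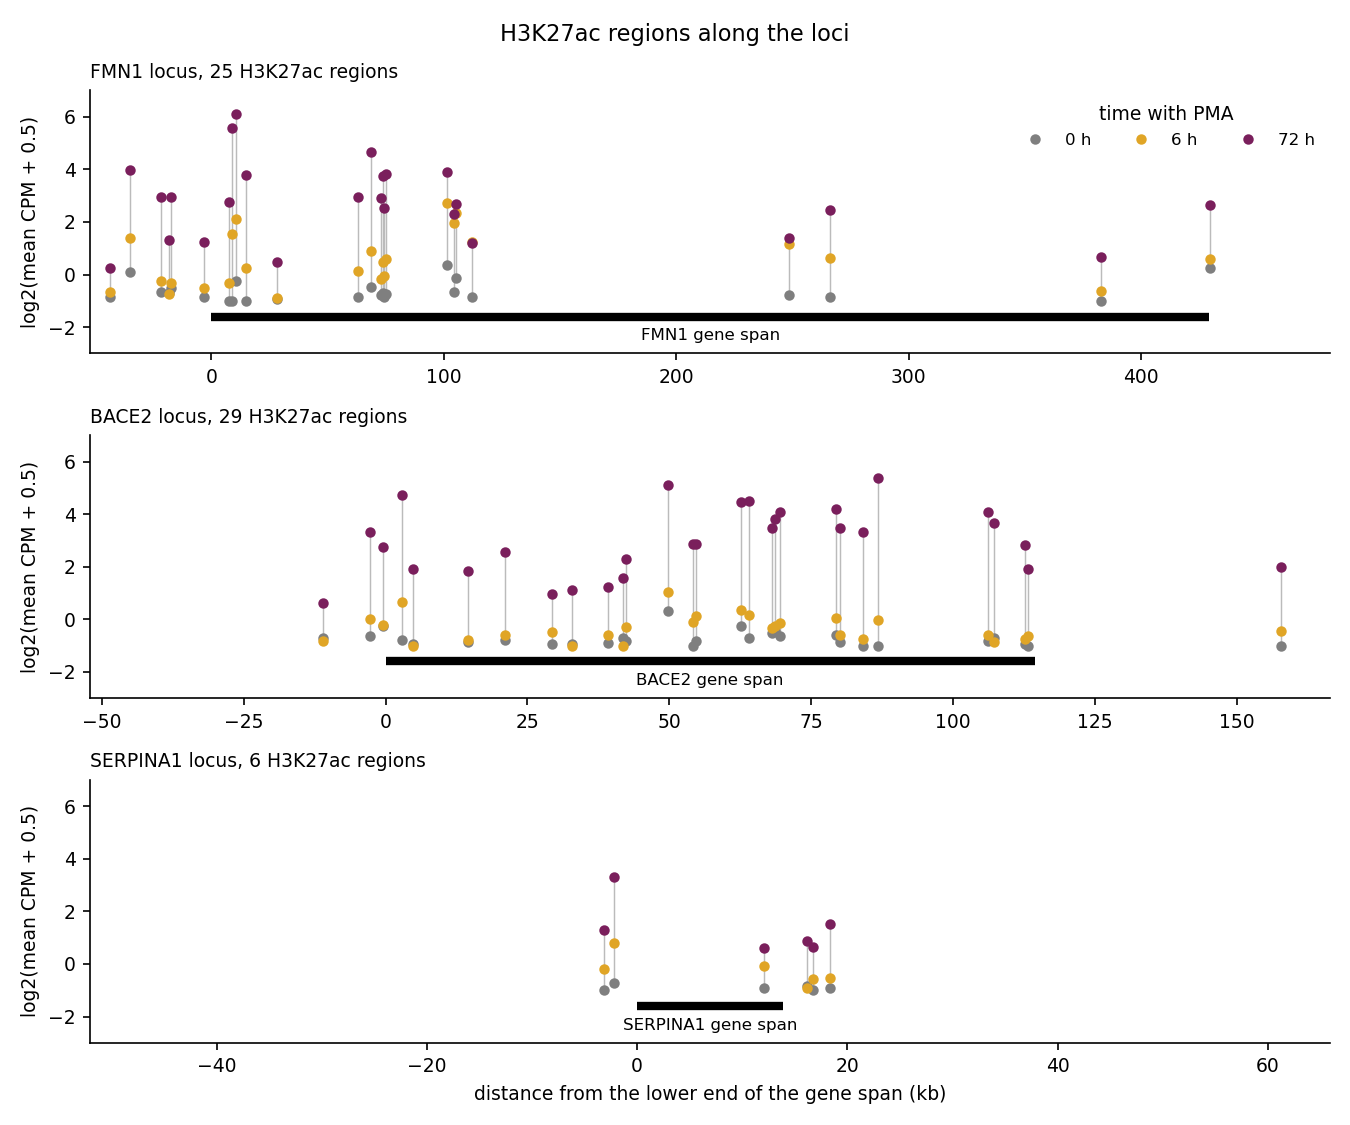
H3K27ac level as log2(mean CPM + 0.5) of each region, mean of 2 libraries per time, against the distance in kb from the lower-coordinate end of the gene span (black bar); grey lines join 0 and 72 h. At FMN1 the 6 h points of regions 19 to 22 lie close to their 72 h points, and at BACE2 the 6 h sum is 3.12% of the 72 h sum.

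Jun was present at low level before PMA and rose at most regions of the loci. Summed over the FMN1 regions the libraries held 73.4 and 60.5 CPM at 0 h, 119 and 101 CPM at 6 h, then 273 and 277 CPM at 72 h. At BACE2 the sums were 51.6 and 48.6 CPM, then 72.0 and 51.6 CPM, then 281 and 286 CPM, and at SERPINA1 8.60 and 8.60 CPM, then 23.4 and 21.9 CPM, then 48.9 and 51.4 CPM. As with H3K27ac, the BACE2 locus had the smallest part of its 72 h sum at 6 h, 21.8% beside 40% at FMN1 and 45.0% at SERPINA1, and 1 of its 6 h libraries was level with a 0 h library. Of the 92 Jun regions 90 passed the filter. At 72 h 76 were called higher than at 0 h and 1 lower, where 28% of all Jun regions were called higher and 25.7% lower, and again the contrast chose the loci, so nothing is read from it or from the Jun counts at the other times. The median log2 fold changes were 1.80, 2.71 and 2.08 at FMN1, BACE2 and SERPINA1, beside 0.172 over all 132947 regions tested.

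At 6 h 9 FMN1, 3 BACE2 and 2 SERPINA1 Jun regions were called higher than at 0 h and 1 BACE2 region lower, with 13.1% and 12.2% of all regions called higher and lower, and from 6 to 72 h 60 were called higher, beside 12.7% of all. DESeq2 called 8 regions in place of 15 at 6 h, with 7.97% of all Jun regions called higher and 8.66% lower. Without 72 h replicate 2 edgeR called fewer regions at 6 h and between 6 and 72 h, at the loci and over the whole table.

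Jun region 9 of FMN1 (chr15:32773766-32774560), inside H3K27ac region 8, had 17 and 12 counts at 0 h, 34 and 30 at 6 h, then 507 and 590 at 72 h. Its level was 2.1 ± 0.537 CPM, 6.60 ± 1.59 CPM and 24.6 ± 0.660 CPM (SD, n = 2). The 0 h counts were below the median Jun region count of 19 in those libraries. Region 20 of FMN1 (chr15:32834036-32834330) had the largest rise of the locus, with 0 and 2, 2 and 6, and 98 and 94 counts, a ratio of 29.8 (95% counting interval 8.13 to 248) at 72 h. Over the FMN1 start, Jun region 40 (chr15:33194299-33194817) had 12 and 10, 7 and 9, and 112 and 121 counts. Like H3K27ac there, it moved after 6 h, with 1.59 ± 0.224 CPM, 1.62 ± 0.0378 CPM and 5.23 ± 0.134 CPM. Region 25 of FMN1 (chr15:32870242-32870932), under the early H3K27ac regions 19 and 20, held the most Jun of the locus before PMA, 48 and 64 counts or 8.09 ± 1.54 CPM, and was at 14.2 ± 0.176 CPM at 6 h and 16.1 ± 0.710 CPM at 72 h.

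At BACE2, Jun region 20 (chr21:41229888-41230954) had 22 and 21 counts at 0 h, 26 and 32 at 6 h, then 645 and 657 at 72 h. Region 19 (chr21:41227684-41228396) had 28 and 13, 33 and 40, and 549 and 646 counts, a log2 fold change of 3.17 (SE 0.27) at 72 h. No H3K27ac region overlapped it. The largest rise was in region 26 (chr21:41251994-41252371), from 0.435 ± 0.210 CPM at 0 h and 0.750 ± 0.544 CPM at 6 h to 7.61 ± 1.21 CPM at 72 h.

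The SERPINA1 start carried the largest log2 fold change of Jun at 6 h of all Jun regions of the loci, 5.15 (SE 0.65). It was 4.22 to 9.09 with 1 library left out, highest without 0 h replicate 2, which leaves 0 counts at 0 h. Region 9 (chr14:94388566-94389200), which covers the SERPINA1 sequence shown above, had 0 and 2 counts at 0 h, 20 and 35 at 6 h, then 174 and 221 at 72 h. In CPM this was 0.143 ± 0.203, 5.46 ± 1.31 and 8.83 ± 0.782 (SD, n = 2). The ratio to 0 h was 38.5 at 6 h and 61.3 at 72 h, the latter with a 95% counting interval of 16.9 to 508, and the log2 difference between 72 and 6 h was 0.67 (SE 0.29). Over the same bases H3K27ac region 3 was at 0.456 ± 0.0511 CPM at 6 h and 1.03 ± 0.0815 CPM at 72 h. Jun region 5 (chr14:94373619-94374288), at the 3′ H3K27ac regions 1 and 2, had 9 and 8, 26 and 27, and 182 and 233 counts.

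One Jun region of the loci was called lower at 72 h. Region 35 of the BACE2 locus (chr21:41284968-41285347), beyond the gene span, had 14 and 26 counts at 0 h, 30 and 24 at 6 h, then 25 and 36 at 72 h. Its log2 fold change was -1.08 (SE 0.42) against 0 h and -2.01 against 6 h. Neither with total counts in place of TMM factors nor with DESeq2 was any Jun region of the loci called lower than at 0 h at 72 h, and with total counts 86 were called higher beside 44.3% of all regions. The same interval, base for base, was a region of the CTCF and Rad21 tables. There CTCF had 13 and 13 counts at 0 h, 38 and 34 at 6 h, then 21 and 39 at 72 h, and Rad21 had 23 and 24 at 0 h, then 63 and 57 at 72 h. In CPM the mean was lowest at 72 h for Jun, highest at 6 h for CTCF and higher at 72 h than at 0 h for Rad21.

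**Figure D3:**
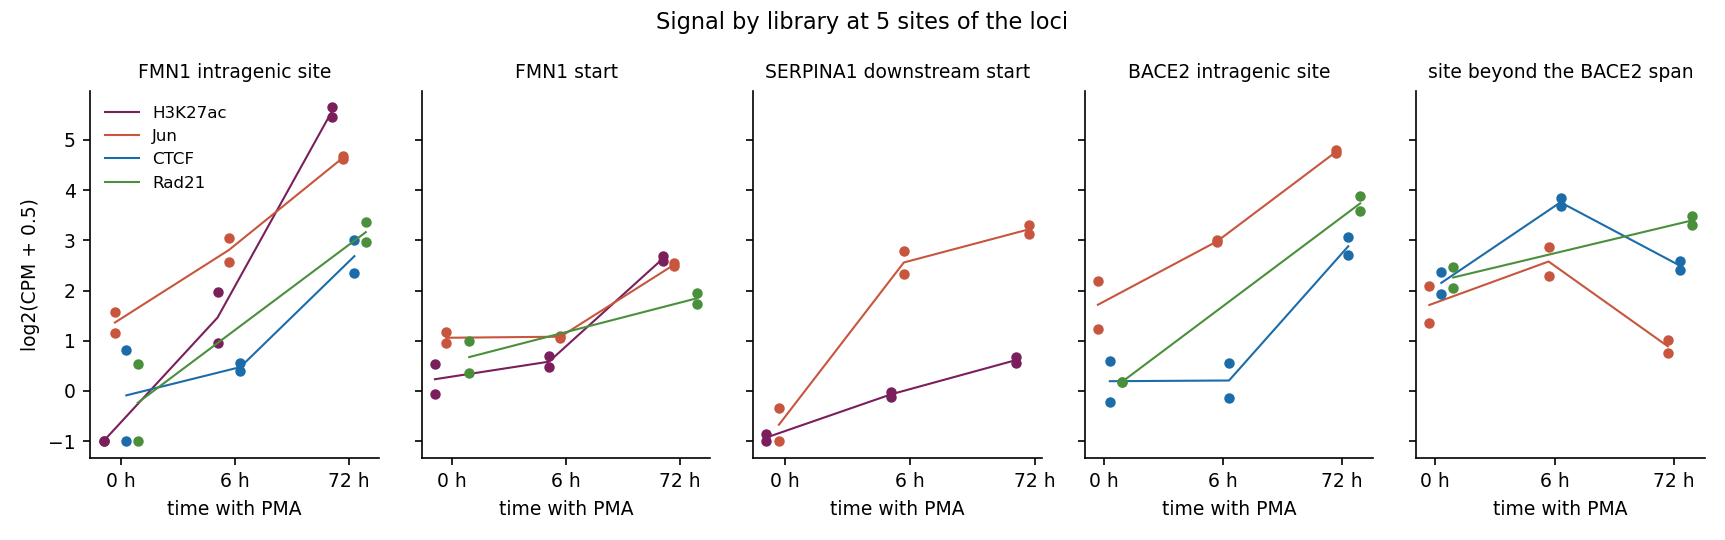
log2(CPM + 0.5) by time with PMA at 5 sites of the loci, 1 point per library and lines through the means of 2 libraries, coloured by antibody; an antibody with no region at a site is not drawn, and Rad21 has no 6 h library. At the site beyond the BACE2 span mean Jun goes from 2.88 CPM at 0 h to 1.36 CPM at 72 h and mean Rad21 from 4.34 to 10.1 CPM.

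Few CTCF regions of the loci passed the test. Of the 6 called higher at 72 h, 4 overlapped both a Jun and an H3K27ac region. This is no trait of the loci, since 1647 of the 2368 CTCF regions called higher genome-wide also overlapped both. Of the 36 CTCF regions of the loci 31 passed the filter. At 72 h against 0 h edgeR (quasi-likelihood fit, Benjamini-Hochberg adjusted) called 6 higher and none lower, or 19.4% of those tested. Of all CTCF regions 6.79% were called in either direction and 4.07% higher. The 6 include regions 6 and 7 of BACE2 and region 1 of FMN1, which passed the filter only through their 72 h libraries. The share called is therefore no support for a rise. The median log2 fold change of the 31 was 0.69, beside 0.03 over all regions tested. At 6 h against 0 h 1 region was called, with 2.65% of all regions called, and between 6 and 72 h 2 were called, with 2.18% of all. The calls depended on single libraries, and the calls over the whole table moved in the same direction. With any 0 h or 72 h library left out few or none of the 6 regions were called at 72 h. With either 6 h library left out more regions were called than in the full fit. DESeq2 called 1, with 1.01% of all CTCF regions called higher in place of 4.07%.

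The CTCF regions with the most signal did not pass the test. Region 10 of FMN1 (chr15:32994621-32995304) had 72 and 83 counts at 0 h, 67 and 77 at 6 h, then 140 and 228 at 72 h, or 24.2 ± 8.20 CPM, 26.5 ± 6.81 CPM and 32.1 ± 0.161 CPM (SD, n = 2). Its log2 fold change at 72 h was 0.43 (SE 0.28, edgeR adjusted p = 0.32). Region 9 of the BACE2 locus (chr21:41283165-41283850), just past the gene, had 75 and 45, 49 and 40, and 80 and 154 counts, with a log2 fold change of 0.18 (SE 0.26, edgeR adjusted p = 0.672). Region 3 of BACE2 (chr21:41170259-41170882), under H3K27ac region 4, was at 9.85 ± 3.73 CPM at 0 h and 18.5 ± 1.79 CPM at 72 h (edgeR adjusted p = 0.088). At SERPINA1 the best filled region, region 4 (chr14:94423411-94423931), was at 5.90 ± 1.86 CPM, 9.95 ± 4.92 CPM and 7.19 ± 2.35 CPM.

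The largest CTCF rises were at BACE2. Region 7 (chr21:41236353-41236784) had 5 and 0 counts at 0 h, 2 and 3 at 6 h, then 33 and 69 at 72 h. Its log2 fold change was 3.52 (SE 0.73, edgeR adjusted p = 0.0138, and 8.08e-05 to 0.147 over the alternatives). With 1 library left out it was 2.77 to 8.11, the highest without 0 h replicate 1. Region 6 (chr21:41227884-41228223), inside Jun region 19, had 4 and 1, 3 and 1, and 26 and 56 counts, with a log2 fold change of 3.19 (SE 0.70, edgeR adjusted p = 0.0177, and 0.000568 to 0.251 over the alternatives). These were also the 2 regions called between 6 and 72 h. Neither had more than 5 counts in any library before 72 h, so both passed the low count filter only through their 72 h libraries. Their tests are therefore no support for a rise.

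At FMN1, CTCF region 1 (chr15:32774066-32774433), inside Jun region 9 and H3K27ac region 8, had 5 and 0, 3 and 2, and 20 and 54 counts (log2 fold change 3.04, SE 0.79, edgeR adjusted p = 0.033). With 1 library left out its log2 fold change was 2.28 to 7.62, again highest without 0 h replicate 1. It too passed the low count filter only through its 72 h libraries, so its test is no support for a rise. Regions 3 and 6 of FMN1 were called with edgeR adjusted p-values of 0.0472 and 0.0429, and region 1 of SERPINA1 (chr14:94355472-94355949), which overlapped no other region, with 0.044. Their log2 fold changes were 2.51, 2.81 and 1.85. With 1 library left out these were 2.16 to 2.78, 2.34 to 3.47 and 1.4 to 2.32. The region called at 6 h was region 10 of BACE2, the interval shared with Jun and Rad21, at 4 ± 0.974 CPM at 0 h, 13.1 ± 1.08 CPM at 6 h and 5.16 ± 0.453 CPM at 72 h (log2 fold change at 6 h 1.72, SE 0.42, edgeR adjusted p = 0.0303, and 0.0171 to 0.27 over the alternatives).

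Rad21 was called higher at 72 h at most tested regions of FMN1 and BACE2, and did not pass the test at SERPINA1. Summed Rad21 was 33.5 and 30.6 CPM at FMN1 at 0 h, then 104 and 96.3 CPM at 72 h, and 33.2 and 41.4 CPM at BACE2 at 0 h, then 110 and 114 CPM at 72 h. The libraries of the 2 times did not overlap at either locus. Of the 42 Rad21 regions 36 passed the filter. Among these 25 were called higher at 72 h and none lower by edgeR (Benjamini-Hochberg adjusted). The 25 include regions, named below, that could not have passed the filter without their 72 h libraries. Their count is therefore no support for a rise. Of all 83750 Rad21 regions tested 23.3% were called in either direction and 15.4% higher. The median log2 fold change was 2.18 over the 18 FMN1 regions tested and 2.00 over the 17 BACE2 regions, beside -0.0511 over all. DESeq2 made 16 calls in place of 25, with 6.89% of all Rad21 regions called higher. Without 72 h replicate 1 edgeR made fewer calls, at the loci and over the whole table.

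Sorted by what they overlapped, 18 of 19 tested Rad21 regions over both a Jun and an H3K27ac region were called higher, with a median log2 fold change of 2.83. Among all such Rad21 regions 23.6% were called higher, with a median of 0.26. Of 7 tested regions at the loci over a Jun region alone 5 were called, and of 7 over neither mark 1 was called, where 20.4% and 4.68% of the corresponding regions of the table were. CTCF showed the same order, with 4 of 6 tested regions over both marks called higher and 1 of 17 over neither, beside 8.48% and 1.16% of the table. The Jun and H3K27ac regions of these loci were chosen for their gain, so the table's regions are not matched to them. Several called regions over both marks could not have passed the low count filter without their 72 h libraries. Among them were Rad21 regions 2, 4 and 5 of FMN1 and 7, 11 and 13 of BACE2. CTCF region 1 of FMN1 and region 7 of BACE2 had the same limit. These counts are therefore no support for a rise.

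**Figure D4:**
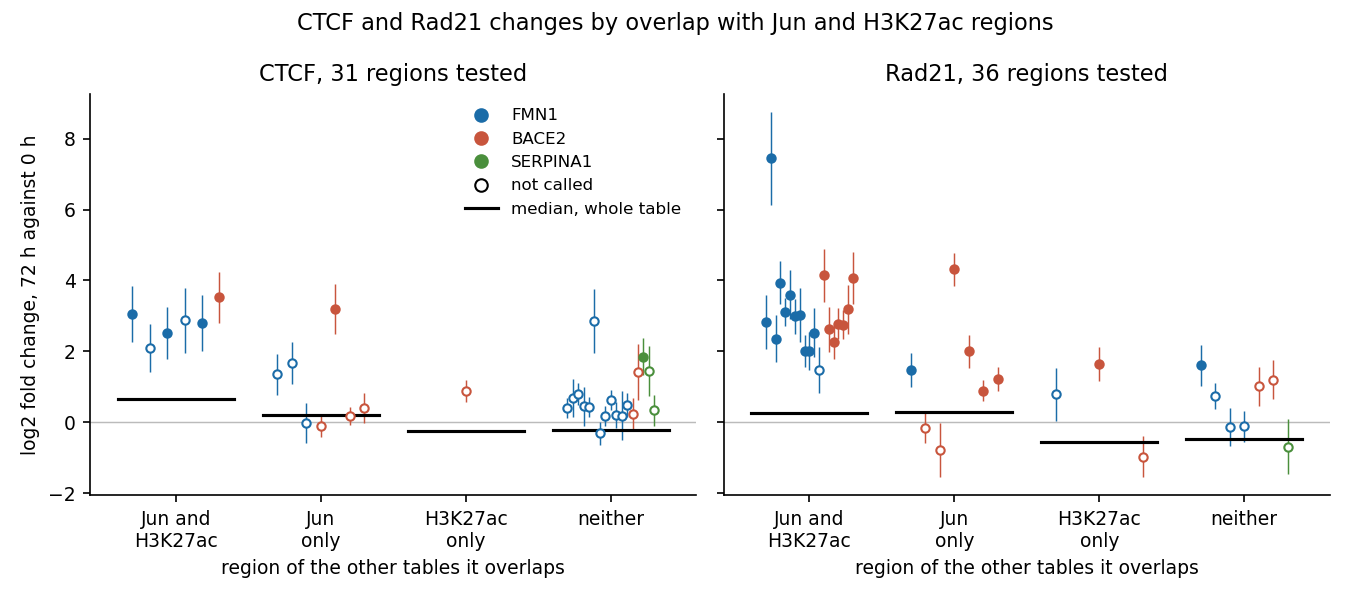
log2 fold change at 72 h against 0 h, with its SE, of each tested CTCF region (left) and Rad21 region (right) of the loci, placed by the Jun and H3K27ac regions it overlaps; filled points are called at an adjusted p under 0.05, and black bars are medians of the whole table. Of the 19 Rad21 regions over both marks 18 are filled, and the SERPINA1 region lies below 0.

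The largest Rad21 rise at BACE2 was at the site of CTCF region 6 and Jun region 19. There Rad21 region 9 (chr21:41227921-41228360) had 4 and 3 counts at 0 h, then 96 and 61 at 72 h, or 0.631 ± 0.00299 CPM and 12.9 ± 1.97 CPM (SD, n = 2), with a log2 fold change of 4.31 (SE 0.46, edgeR adjusted p = 2.92e-06). Region 7 (chr21:41217800-41218041) had 3 and 0 counts at 0 h, then 36 and 25 at 72 h, a ratio of 18.8 with a 95% counting interval of 6.13 to 93.5 (edgeR adjusted p = 0.000486). Region 15 (chr21:41274667-41274911) had 2 and 1, and 36 and 23, and region 11 (chr21:41236311-41236659), at CTCF region 7, had 6 and 10, and 69 and 53 (edgeR adjusted p = 8.47e-05). In all of these both 72 h libraries lay above both 0 h libraries, as in 32.5% of all Rad21 regions tested, while 32.6% lay below. The regions were named for the size of their rise, so nothing is read from this. Regions 7, 9 and 15, and region 13 below, had at most 4 counts in a 0 h library, and region 11 had 6 and 10. None of these regions could have passed the low count filter without its 72 h libraries, so their tests are no support for a rise. Region 13 (chr21:41254427-41254626), inside H3K27ac region 24, had 3 and 2, and 32 and 20 counts, and, like region 15, was not called in 1 of the 4 fits that left out a library.

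At FMN1 the largest fitted change was in region 2 (chr15:32743718-32744027), over GREM1 and not FMN1, with 0 and 0 counts at 0 h, then 24 and 21 at 72 h, at least 6.82-fold higher than the floor of 3 counts (edgeR adjusted p = 0.000363). Region 5 (chr15:32776303-32776754), inside H3K27ac region 9, had 8 and 8, and 99 and 55 counts, with a log2 fold change of 3.11 (SE 0.40, edgeR adjusted p = 1.38e-05). Region 4 (chr15:32774099-32774424) had 6 and 0, and 49 and 52 counts, with a log2 fold change of 3.94 (SE 0.60, edgeR adjusted p = 7.19e-05, and 3.16 to 8.63 with 1 library left out, the highest without 0 h replicate 1). Regions 2, 4 and 5 could not have passed the low count filter without their 72 h libraries, so their tests are no support for a rise. Regions 4 and 5 lay at the FMN1 sites where H3K27ac reached its highest levels. Over the FMN1 start, region 22 (chr15:33194709-33194955) had 5 and 7, and 19 and 18 counts, a difference that was not called (log2 fold change 1.47, SE 0.66, edgeR adjusted p = 0.106).

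Rad21 was also measured at the CTCF regions of highest signal. FMN1 region 16 (chr15:32994652-32995225), at CTCF region 10, had 50 and 13 counts at 0 h, then 64 and 47 at 72 h. Its log2 fold change was 0.74 (SE 0.37, edgeR adjusted p = 0.147). BACE2 region 17 (chr21:41283191-41283671), at CTCF region 9, was called with a log2 fold change of 0.89 (SE 0.30, edgeR adjusted p = 0.0367, and 0.0166 to 0.217 over the alternatives). BACE2 region 18, the interval shared with Jun and CTCF, rose by a log2 fold change of 1.22 (SE 0.34, edgeR adjusted p = 0.0119, and 0.00461 to 0.103 over the alternatives). At SERPINA1 the single Rad21 region (chr14:94379436-94379635) had 10 and 16 counts at 0 h, then 2 and 15 at 72 h, which overlapped (log2 fold change -0.69, SE 0.78, edgeR adjusted p = 0.538).

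The peak lists called for single libraries gave another count of the same loci. No H3K27ac peak lay in any of the 3 windows in either 0 h library, and at 72 h there were 18 and 18 at FMN1, 16 and 24 at BACE2, and 3 and 4 at SERPINA1. At 6 h 1 H3K27ac peak was listed, at FMN1 in replicate 1. Jun peaks numbered 0 and 1 at FMN1, 0 and 0 at BACE2, and 0 and 0 at SERPINA1 at 0 h, and 26 and 34, 26 and 26, and 8 and 9 at 72 h. The whole lists also grew, from 42125 and 42852 H3K27ac peaks at 0 h to 65267 and 66147 at 72 h, and from 31637 and 35072 Jun peaks to 92329 and 99102. Rad21 peaks at BACE2 went from 1 and 3 to 7 and 8, while the whole Rad21 lists went from 34680 and 59005 to 33048 and 25687. At FMN1 they went from 2 and 6 to 7 and 6, which overlapped, and at SERPINA1 from 0 and 1 to 0 and 0. CTCF peaks at FMN1 numbered 8 and 8 at 0 h, 3 and 8 at 6 h, then 10 and 16 at 72 h. The whole CTCF lists held 33632 and 28029 peaks, then 18043 and 26792, then 27158 and 40805. The lowest and highest counts at FMN1 thus fell in the shortest and longest lists.

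For each relative of the 3 genes the H3K27ac region of highest mean CPM over its span was taken. The mean was over all libraries, so the pick can favour a region high at 72 h. The p-values of regions so picked, here and for the amyloid processing genes, are a description. Of 13 other formins 11 had one, of which 6 were called higher and 3 lower at 72 h, with a median log2 fold change of 0.96. FMN2, the closest relative of FMN1, went from 0.166 ± 0.0861 CPM at 0 h to 1.16 ± 0.0407 CPM at 6 h and 12.2 ± 1.00 CPM at 72 h (log2 fold change 6.17, SE 0.33, edgeR adjusted p = 7.43e-15). FMNL2, a formin of the cell edge, went from 2.04 ± 0.804 CPM to 31.1 ± 3.65 CPM, while DIAPH3, a formin of the diaphanous group, fell from 57.4 ± 2.1 CPM to 23.9 ± 2.08 CPM. FMNL1, FMNL3, FHOD3 and INF2 were also called higher and DAAM1 and GRID2IP lower.

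Of 12 genes of amyloid precursor processing other than BACE2, 11 had an H3K27ac region, and at 72 h 1 was called higher and 7 lower, with a median log2 fold change of -0.47. The one called higher was APP, the precursor itself, at 0.353 ± 0.0973 CPM at 0 h, 0.877 ± 0.152 CPM at 6 h and 19 ± 0.853 CPM at 72 h (log2 fold change 5.72, SE 0.26, edgeR adjusted p = 2.69e-16). BACE1, the main beta-secretase, had no H3K27ac region. PSENEN, a subunit of gamma-secretase, was among the 7 and fell from 53.3 ± 0.537 CPM to 22.9 ± 0.870 CPM.

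None of 10 other clade A serpins had an H3K27ac region, and the one with a Jun region was SERPINA2, inside the SERPINA1 window, with 1 and 4 counts at 0 h, then 27 and 43 at 72 h. The calls among formins and amyloid processing genes stand beside 43.4% and 38.1% of all H3K27ac regions called higher and lower.

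Regions elsewhere in the genome followed the member regions closely across the 6 libraries, as measured by the root mean square difference of log2(CPM + 0.5). The 3 nearest to FMN1 H3K27ac region 8 differed by 0.295 to 0.331 and lay nearest to HSPA8P13, LOC124902074 and PGM1. For BACE2 H3K27ac region 24 they differed by 0.343 to 0.427 and lay over KIRREL3, SLCO3A1 and TSPAN9, all at 0.428 to 0.764 CPM at 6 h and 28.8 to 35 CPM at 72 h. The early course of SERPINA1 Jun region 9 was nearest to that of a region over CCDC197 and LOC124903368 on the same chromosome, at 0.289 CPM at 0 h, 6.24 CPM at 6 h and 7.5 CPM at 72 h, with a difference of 0.339. Its other neighbours by this measure lay nearest to RPS6P13 and LINC03066.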

How the data were processed

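The deposited region table of each of the 4 antibodies gives unnormalized counts of each library, and per the file headers the authors' log2 fold change against 0 h, an adjusted p-value and a label. The 22 deposited peak lists, 1 per library, give per the file headers each peak's score, fold enrichment (a ratio) and −log10 p- and q-values, and were used as given. The submitters' processing notes name Trim Galore 0.4.3, BWA 0.7.17, SAMtools 1.9, deepTools 3.0.1, MACS2 and bedtools 2.26, and the builds hg19 and hg38, without roles; the table contigs are named as in GRCh38. Region starts in the tables equal peak starts counted from 0, so 1 was added.

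Per antibody, edgeR 4.0.16 (R 4.3.3) was fitted to all libraries and regions: filterByExpr, TMM, glmQLFit and glmQLFTest, no replicate block, called at a Benjamini-Hochberg adjusted p-value under 0.05. The SE is the log2 fold change divided by the root of the F statistic. Overlaps needed 1 bp. CPM uses TMM-scaled totals of counts in regions, which are not the sequencing depth. Intervals and the floor of 3 counts cover counting error only. In simulated data with 200 regions changed 4-fold at 72 h, 161 of them were recovered among 94865 H3K27ac, 153 among 132947 Jun, 134 among 58156 CTCF and 126 among 83750 Rad21 regions, with 8.52%, 7.83%, 10.7% and 1.56% false calls. The changes ran up and down in equal number and all other regions were flat. In the real data 77289 H3K27ac and 71387 Jun regions were called at 72 h, so these rates do not carry over to them.

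Named regions were, per locus and table, the largest rise at 72 h, the 3 of highest mean CPM, up to 5 called CTCF or Rad21 regions, and those over a start window. The members and the lists were chosen with earlier results of these data known. Some list results are not reported here. RefSeq (GRCh38.p14) gave spans and start sequences; BACE2 start sequence was not used here. Alternatives were total count scaling, DESeq2 1.42.0, other count filters, fits to 2 time points, a replicate block and single libraries left out.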

Additional observations from a re-analysis of the deposited data

How the results depend on the processing

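Counts of called regions at the 3 loci are given here as main value and alternative. H3K27ac at 72 h (60 calls) and between 72 and 6 h (55 calls), and Jun at 72 h (77), stayed within 1.5 times under each setting run. H3K27ac at 6 h went from 30 to 16 with only the 2 time points fitted. Jun at 6 h went from 15 to 8 with DESeq2. CTCF at 6 h went from 1 to 0 with DESeq2, at 72 h from 6 to 11 with total counts or only 2 time points and to 1 with DESeq2 or a mean count of at least 20, and between 72 and 6 h from 2 to 5, 1 and 0 with total counts, DESeq2 and that filter. Rad21 went from 25 to 16 with DESeq2 and to 13 with that filter, which tests fewer regions. Leaving out 1 library gave 24 to 31, 60 to 60 and 52 to 56 H3K27ac calls at 6 h, at 72 h and between them, 8 to 15, 53 to 80 and 38 to 62 Jun calls, 0 to 1, 0 to 11 and 0 to 2 CTCF calls, and 13 to 26 Rad21 calls. Except where the filter removed regions, the cause was not tested. No named region changed direction with a call.

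Replicate numbers did not pair the libraries: same-numbered libraries deviated together with correlations of -0.00841 to 0.124. With the replicate block the counts were 28, 60 and 55 for H3K27ac, 14, 77 and 59 for Jun, 1, 7 and 2 for CTCF, and 25 for Rad21. Total count scaling moved the median log2 fold change at 72 h over all regions from 0.185 to 0.418 (H3K27ac), 0.172 to 0.733 (Jun), 0.0312 to 0.261 (CTCF) and -0.0511 to -0.245 (Rad21). The share of calls over the whole table that were higher moved with it, at 72 h from 52.1% to 74.4% in Jun, in CTCF from 59.9% to 91.4% (4.07% to 11.3% of all CTCF regions), and in Rad21 from 66.1% to 48.8%. Low CTCF and Rad21 counts limit single regions.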

Other observations

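The labels in the authors' deposited table run against its own fold changes at these loci. Of the 60 H3K27ac regions the authors' deposited table labels 43 as up, 14 as down and 3 as static, and all 14 labelled down have a positive log2 fold change at 72 h in the same table, 12 of them positive at both times. FMN1 H3K27ac region 15 (chr15:32839089-32839592), labelled as falling early, had 2 and 2 counts at 0 h, 16 and 13 at 6 h, then 335 and 368 at 72 h, a log2 fold change of 6.74 at 72 h in the authors' deposited table. BACE2 H3K27ac region 25, with 2 and 0 counts at 0 h, then 407 and 497 at 72 h, is also labelled as falling early. For Jun 24 of 92 regions of the loci are labelled down, and all 24 have a positive deposited log2 fold change at 72 h. Over the whole tables this held for 6716 of 9365 H3K27ac regions labelled down (71.7%), 3472 of 7036 Jun regions (49.3%), 33 of 36 CTCF regions and 0 of 87 Rad21 regions. How the labels were made is not given in the sources used here, and they were not used for any result above.

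The 3 H3K27ac regions of the loci that the authors' deposited table labels static have deposited log2 fold changes at 72 h of 0.22, 0.25 and 0.24. Their counts at 0 and 72 h were 0 and 0 against 22 and 38 in FMN1 region 24, 4 and 0 against 57 and 80 in BACE2 region 11, and 0 and 0 against 77 and 101 in BACE2 region 28. The edgeR fit gave 7.53, 4.43 and 9.09 for the same regions, and in all 3 at least 1 of the 6 h libraries had 0 counts. By contrast, FMN1 H3K27ac region 8, also at 0 and 0 counts at 0 h, has a deposited value of 12.71 beside 12.94 in the edgeR fit. The cause of the small deposited values was not tested.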
